A study of Arabidopsis thaliana with 18 samples.

Results

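The chloroplast genome of Arabidopsis thaliana encodes, besides subunits of the photosynthetic complexes, part of the machinery that expresses it, and these gene expression genes and a few others are described here. The probe sets (the groups of short probes that stand for a transcript on the array) were chosen by an annotation rule that uses no signal values. Earlier results of these data were known when the rule was set. A probe set was taken where it names exactly 1 gene, the gene carries a chloroplast locus tag, and its symbol is not that of a photosystem, cytochrome complex, NADH dehydrogenase-like complex, ATP synthase or Rubisco gene. That gave 26 of the 22810 probe sets, each for a different gene, out of 69 for chloroplast-encoded genes. They fall into 5 classes. The small ribosomal subunit class holds 8 genes (rps2, rps3, rps4, rps14, rps15, rps16, rps18 and rps19), and the large ribosomal subunit class holds 7 (rpl14, rpl16, rpl20, rpl22, rpl32, rpl33 and rpl36). The RNA polymerase class holds the 4 genes rpoA, rpoB, rpoC1 and rpoC2, the ycf class holds the 2 genes ycf3 and ycf4, and 5 single genes (accD, ccsA, cemA, clpP and matK) make up the last. Of the 34 such genes in the RefSeq annotation (assembly TAIR10.1, used for names and gene order only), 8 have no probe set that names them alone and were not analysed here.

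Chloroplasts transcribe their genes with a bacterial-type polymerase, whose core subunits are the plastid rpo genes and whose sigma factors come from the nucleus, and with nuclear-encoded phage-type enzymes. The phage-type enzymes transcribe, among others, the rpoB operon and much of the housekeeping set, and most plastid genes lie in clusters whose long RNAs are later cut, spliced and edited. Plastid ribosomes resemble those of bacteria, with some proteins encoded in the chloroplast and the rest in the nucleus. Among the single genes, accD encodes a subunit of the acetyl-CoA carboxylase that starts plastid fatty acid synthesis, clpP the chloroplast-encoded proteolytic subunit of the Clp protease, matK an intron maturase, ccsA a factor that attaches haem to c-type cytochromes, and cemA a protein of the chloroplast envelope. The ycf3 and ycf4 products are factors for the assembly of photosystem I.

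All plants were of the reference accession Col-0. The 9 arrays numbered 1 to 9 in their titles came from plants given 0.02% silwet, a surfactant used to wet leaves, and the 9 numbered 10 to 18 from plants given 0.30 mM SA (salicylic acid, a defence hormone) in 0.02% silwet, so that the controls carry the surfactant too. Rep numbers 1, 2 and 3 recur in turn, so that each run of 3 consecutive title numbers, called a triplet here, holds each Rep number once. The labels give neither a tissue nor a time, and do not say what a triplet or a Rep number stands for. The study is known to have sampled at several times after treatment, so the 9 arrays of a treatment may mix times. Nothing says that replicates came from separate plants, and p-values then measure only the spread between these arrays. Of the leaf markers looked for, LHCB4.1, LHCB4.2 and RCA were named on the array, at 11.73 ± 0.14, 11.02 ± 0.16 and 11.41 ± 0.14 (log2 signal, mean ± SD, n = 9 silwet arrays). PYK10, a root gene, stood at 6.61 ± 0.85, and no flower or seed marker was named.

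Values are log2 of the deposited MAS5 signal, which is scaled to the same trimmed mean on every array, and signals under an array's 20th percentile were raised to it. Tests used limma over the 13652 probe sets that passed a filter on low mean signal, with Benjamini-Hochberg adjustment over all of them and a threshold of 0.05. The dim members rps14 and rpoB did not pass the filter, so 24 of the 26 were tested. Their silwet means were 3.43 ± 0.64 and 3.09 ± 0.50 (SD, n = 9), and they are the 2 members that lay at an array's floor at least once. Signals of different probe sets depend on the probes, so levels are compared between arrays and not between genes. In RNA from whole samples, fewer chloroplasts or chloroplast-rich cells and less RNA per chloroplast cannot be told apart.

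SA array 10 stood apart and is set out before the results. It carries Rep number 1. Its log2 ratio of actin signal at the 3' end over the 5' end was 6.85, against 0.15 to 1.51 on the other 17 arrays, and an older pair of actin control sets gave 5.66 against 0.78 to 2.96. The same ratio for GAPDH was 0.89 against -0.16 to 0.14 (3.36 against -0.06 to 1.32 on the older pair), while that for ubiquitin, 0.93, lay inside the 0.11 to 1.06 of the others (1.67 inside 0.65 to 2.13 on the older pair). The mean of the hybridisation spikes, 7.91, and the median signal, 32.5, lay inside the ranges of the other arrays, 7.18 to 8.99 and 29.7 to 36.3. The large-subunit rRNA control read -0.66 in log2 against 2.01 to 3.90. Most results below are therefore given with and without this array, though some are given with all arrays only. The part of RNA quality in them was not tested.

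On array 10 the members were uneven. It was the lowest of the 18 arrays for 16 of the 26 members, and 11 members lay over 2 log2 units and 17 lay over 1 log2 unit below their silwet mean. The same counts over all probe sets were not made, so they do not set the members apart from other probe sets. ycf4 read 4.71 against 9.18 to 10.37 on the other 17 arrays, a difference from its silwet mean of -5.12 log2 units, and accD read 4.50 against 7.28 to 10.43. In the small subunit class, rps2 read 3.92 against 7.40 to 8.97 and rps4 read 8.39 against 9.64 to 11.78. For the large subunit, rpl16 read 5.67 against 7.53 to 10.18 and rpl22 read 6.23 against 8.24 to 9.62. Among the polymerase genes, rpoC2 read 2.75 against 5.27 to 7.58 and rpoC1 read 6.54 against 7.42 to 8.77. The single genes cemA, clpP and matK read 7.02, 7.34 and 7.80, where their lowest other arrays read 9.96, 9.28 and 9.57. All of these members were lower on array 10 than on any other array, by more than the whole spread of the others in ycf4, rps2, rpoC2, rpl22, cemA, clpP and matK.

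Other members were unremarkable on the same array. rpoA, which encodes the polymerase alpha subunit, read 9.85 within an other-array range of 9.44 to 10.29. rpl32 read 9.50 within 9.26 to 9.92, rps19 read 8.59 within 7.79 to 9.19, and rps15 read 5.47 within 4.41 to 7.21. These and rps14 (3.82 within 2.47 to 4.97) are the 5 members within 0.5 log2 units of their silwet mean. rpoB, the beta subunit gene, read 4.08 and was the only member at its highest of the 18 arrays there. By class, the mean on array 10 was 6.31 for rps (other arrays 7.13 to 8.22), 6.88 for rpl (8.09 to 9.15), 5.80 for rpo (6.18 to 7.43), 4.67 for ycf (6.68 to 9.11) and 7.21 for the single genes (9.25 to 10.85). Array 10 was thus the lowest array for the mean of each class, the rps and rpo means including the dim rps14 and rpoB. The mean of the 26 members was 6.43 on array 10 and 7.62 to 8.85 on the others. The 43 chloroplast photosynthesis probe sets averaged 6.60 against 8.02 to 9.29, and 23 mitochondrial ones 3.77 against 4.02 to 4.52.

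**Figure D1:**
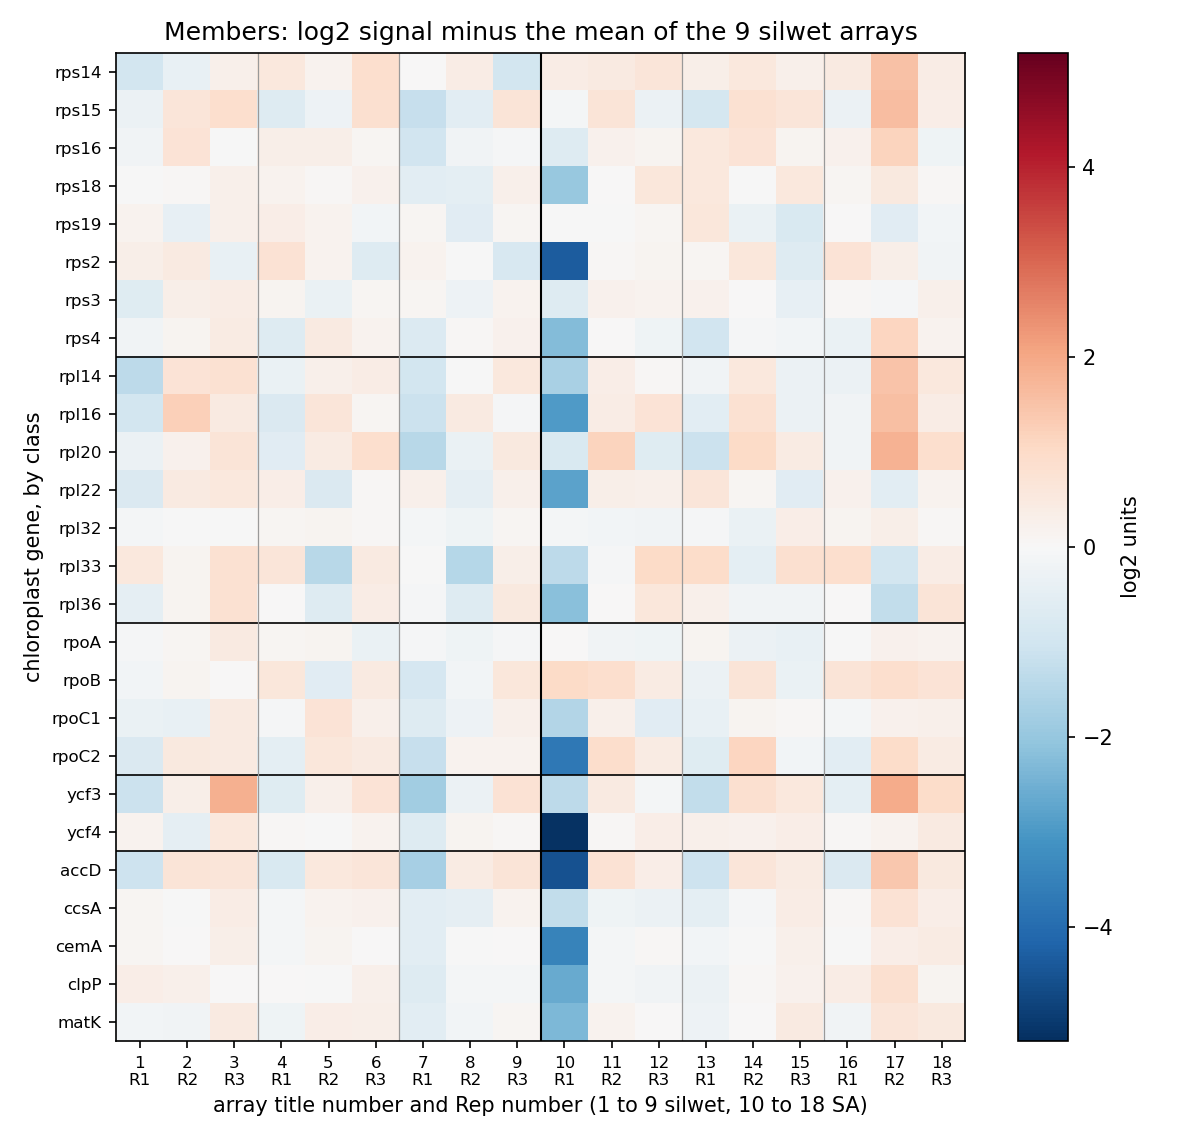
Log2 signal of each of the 26 members (rows, by class) on each of the 18 arrays (columns, with title number and Rep number, R1 to R3), as the difference from that member's mean over the 9 silwet arrays. Blue is lower and red is higher. The dark column is SA array 10, where ycf4, accD, rps2 and rpoC2 are lowest, while rpoA, rpl32 and rps19 are near 0, and SA array 17 is red in most rows.

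Neighbouring genes did not share the fall on array 10 evenly. In the order of the RefSeq annotation, rps2, rpoC2, rpoC1 and rpoB lie side by side, and the first 3 differed from their silwet means on array 10 by -4.31, -3.70 and -1.53. rpoB, at 0.99, was too dim to show a fall of that size, since its silwet mean was 3.09 and the floor of array 10 was 2.13. In the large ribosomal protein cluster the values ran -2.18 for rpl36, -1.67 for rpl14, -2.96 for rpl16, -0.67 for rps3, -2.77 for rpl22 and -0.0027 for rps19. rps3 and rpl22 overlap in the annotation by 16 bases and still differed by more than 2 log2 units in this value. The genes around psaI, namely accD, ycf4 and cemA, were all low, at -4.51, -5.12 and -3.48. rpl32 was at -0.09, and its neighbour ccsA read 9.38, under the 10.15 to 11.43 of its other arrays. The runs of neighbours were picked after the values were seen. No source used here says where on its transcript each probe set lies.

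**Figure D2:**
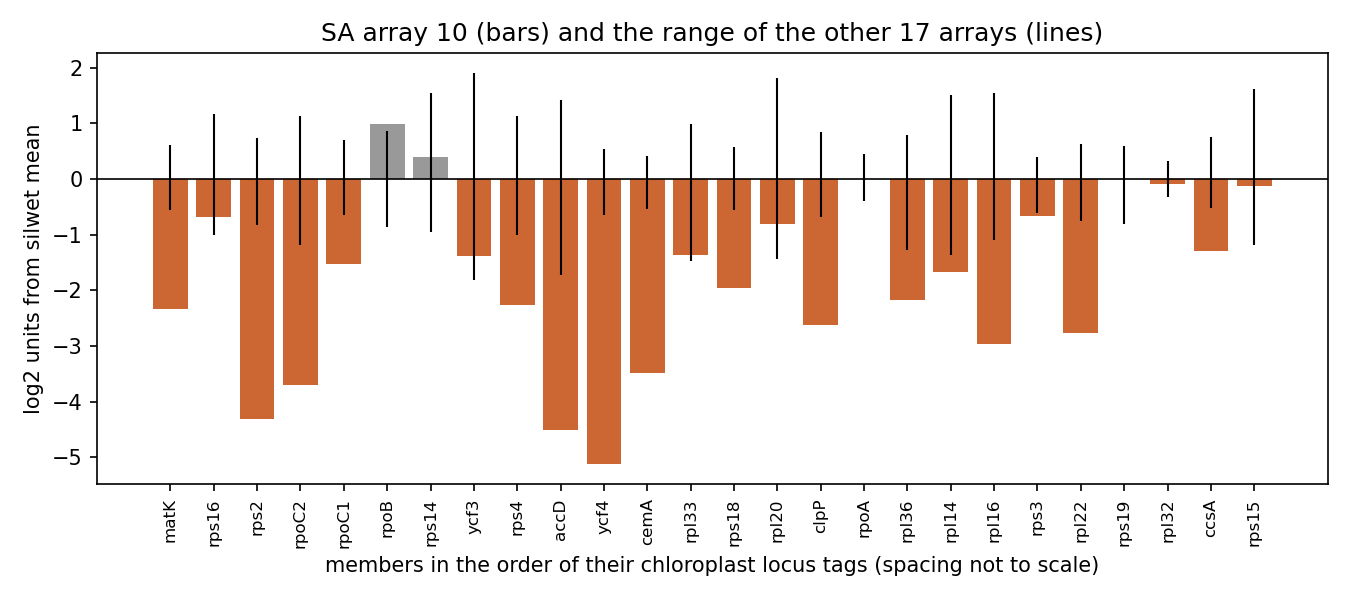
Difference of SA array 10 from the silwet mean in log2 units (bars), for the members in the order of their chloroplast locus tags, with black lines for the range of the other 17 arrays. Grey bars are rpoB and rps14, which were not tested. Bars longer than their line on the lower side, such as ycf4, accD, rps2 and rpoC2, mark members outside the range of every other array, and rpoA and rps19 have bars too short to see.

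Among the other 17 arrays, the steadiest members were rpl32, cemA and rpoA, whose SDs over those arrays were 0.18, 0.22 and 0.23 log2 units. The widest were ycf3 with 1.03, and rpl20 and accD with 0.86 each, and 12 of the 26 members spanned over 2 log2 units. Silwet array 7, which also carries Rep number 1, was the lowest of the 17 for 15 members, and SA array 17, which carries Rep number 2, was the highest of all 18 for 12 members. None of these counts was made over all probe sets. Depth of the assay cannot be told from arrays, and their number limits the precision.

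Several members differed between Rep numbers, most often with Rep 1 low. With treatment as a covariate, 4 of 24 members were called for a difference between Rep numbers (limma F test), where 0.711% of all probe sets tested were called. These were accD, ycf3, rpl16 and rpl14, and in each of them Rep 1 was low. Without array 10 the count was 6 of 24 (accD, rpoC2, rpl16, rpl33, ycf3 and rps2) against 1.03% of all, and 4 of these had Rep 1 lowest. With the 6 triplets as a covariate in place of treatment, a fit that pairs the arrays, 9 of 24 were called against 8.49% of all, namely accD, ycf3, rpl16, rpl14, rpl20, rps4, rps15, rpoC2 and ccsA. The count of 4 also rested on other arrays, being 0 without silwet array 7, 1 without silwet array 6, and 2 when silwet array 1, 2, 3, 4, 5 or 9 or SA array 14, 17 or 18 was left out.

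accD (locus tag ArthCp031) had the largest difference between Rep numbers with all arrays. Its Rep 1 arrays read 7.94, 8.21 and 7.28 with silwet and 4.50, 7.94 and 8.25 with SA. Rep 2 read 9.70, 9.55 and 9.45 with silwet and 9.77, 9.65 and 10.43 with SA. Rep 3 read 9.62, 9.63 and 9.70 with silwet and 9.34, 9.42 and 9.50 with SA. Every Rep 1 array lay below every other array in both treatments. Rep 2 exceeded Rep 1 by 2.41 ± 0.46 and Rep 3 exceeded Rep 1 by 2.18 ± 0.46 log2 units (difference ± SE, limma, adjusted p = 0.0265). Without array 10 the differences were 1.82 ± 0.18 and 1.60 ± 0.18 (adjusted p = 0.000252).

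ycf3 (ArthCp023), a photosystem I assembly factor with introns, ranged over 4.19 to 5.50 on the 6 Rep 1 arrays (median 4.82), 5.69 to 7.92 in Rep 2 (median 6.40) and 5.90 to 7.85 in Rep 3 (median 6.74). Again the Rep 1 arrays did not overlap with the rest. Rep 2 and Rep 3 exceeded Rep 1 by 1.70 ± 0.35 and 1.90 ± 0.35 log2 units (SE, limma, adjusted p = 0.0215), and by 1.62 ± 0.37 and 1.83 ± 0.37 without array 10 (adjusted p = 0.0346). Array 10 itself read 4.63, inside the range of the other Rep 1 arrays. Its neighbour rps4, a small subunit protein gene, ranged over 8.39 to 10.48 (median 9.97), 10.57 to 11.78 (median 10.76) and 10.43 to 11.09 (median 10.84) in Rep 1, 2 and 3. The rps4 differences of 1.15 ± 0.27 and 0.97 ± 0.27 did not pass over all probe sets (limma, adjusted p = 0.0812). Without array 10 they were 0.88 ± 0.20 and 0.70 ± 0.20 (adjusted p = 0.0731). With all arrays and triplets as the covariate, rps4 passed (adjusted p = 0.00885).

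rpl16 (ArthCp060) and rpl14 (ArthCp059), neighbours that encode large subunit proteins, shared the order. On the Rep 1 arrays rpl16 read 7.67, 7.89 and 7.53 with silwet and 5.67, 8.08 and 8.43 with SA, and in Rep 2 it ranged over 9.01 to 10.18 (median 9.34) and in Rep 3 over 8.31 to 9.35 (median 8.87). Rep 1 lay wholly below Rep 2, and overlapped with Rep 3 only through SA array 16, at 8.43. The rpl16 difference of Rep 2 from Rep 1 was 1.93 ± 0.36 (SE, limma, adjusted p = 0.0334 over the Rep numbers). Without array 10, Rep 2 and Rep 3 exceeded Rep 1 by 1.53 ± 0.22 and 0.90 ± 0.22 (adjusted p = 0.00927). rpl14 ranged over 5.98 to 7.45 in Rep 1 (median 6.99), 7.61 to 9.15 in Rep 2 (median 8.10) and 7.36 to 8.43 in Rep 3 (median 8.12). Its differences, 1.37 ± 0.29 and 1.15 ± 0.29, sat at the threshold (adjusted p = 0.0495), and its adjusted p was 0.0677 without array 10. Next to them, rps3 differed by 0.12 and 0.24, rpl22 by 0.19 and 0.47 and rps19 by -0.50 and -0.31 between Rep 2 or Rep 3 and Rep 1, none of them past the threshold. Without array 10 these differences were 0.0055 and 0.13 for rps3, -0.30 and -0.025 for rpl22, whose signs turned, and -0.54 and -0.34 for rps19.

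rpoC2 (ArthCp012), which encodes the beta double-prime subunit of the polymerase, read 5.27 to 5.96 on the Rep 1 arrays other than array 10, where it read 2.75. In Rep 2 it ranged over 6.65 to 7.58 (median 7.22) and in Rep 3 over 6.29 to 6.92 (median 6.86), so the Rep 1 arrays lay below all others. The differences from Rep 1 were 1.94 ± 0.41 and 1.51 ± 0.41 with all arrays (limma, adjusted p = 0.0589). They were 1.43 ± 0.17 and 0.99 ± 0.17 without array 10, where the test passed (adjusted p = 0.00202). rpoC1, the beta-prime subunit gene beside it, ranged over 6.54 to 8.01 in Rep 1 (median 7.71), 7.68 to 8.77 in Rep 2 (median 8.26) and 7.50 to 8.52 in Rep 3 (median 8.33), and did not pass with or without array 10 (adjusted p = 0.236 and 0.354). rpoA was flat, with medians of 9.83, 9.79 and 9.69 in Rep 1, 2 and 3. rpoB, which was not tested, had medians of 3.30, 3.49 and 3.53.

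Of the tested members, accD, ycf3 and rpoC2 are the 3 with every Rep 1 array below every Rep 2 and Rep 3 array. Among all 13652 probe sets tested, 0.139% had that arrangement.

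The members rpl33 and rps2 were called only without array 10 and had another order. rpl33 (ArthCp043), a large subunit gene, was low in Rep 2, at 9.17, 7.59 and 7.56 with silwet and 8.98, 8.54 and 8.06 with SA. Rep 1 read 9.59, 9.65 and 9.02 with silwet and 7.67, 10.00 and 9.90 with SA, and Rep 3 ranged over 9.34 to 10.01 (median 9.66). Apart from array 10, the Rep 2 arrays overlapped with the others only at silwet array 2, which read 9.17 where silwet array 7 read 9.02. Rep 2 differed from Rep 1 by -1.35 ± 0.26 without array 10 (limma, adjusted p = 0.0162) and by -0.99 ± 0.36 with it (adjusted p = 0.124). Its neighbours went other ways, since rps18 differed between Rep 2 and Rep 1 by 0.31 and rpl20 by 1.45 (-0.05 and 1.41 without array 10). rps2 (ArthCp011) was low in Rep 3, where it ranged over 7.40 to 8.37 (median 7.70), against 8.20 to 8.80 in Rep 2 (median 8.47) and 8.34 to 8.97 on the Rep 1 arrays other than array 10 (median 8.53). Rep 3 differed from Rep 1 by -0.86 ± 0.18 without array 10 (adjusted p = 0.0353) and by -0.06 ± 0.62 with it (adjusted p = 0.765).

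**Figure D3:**
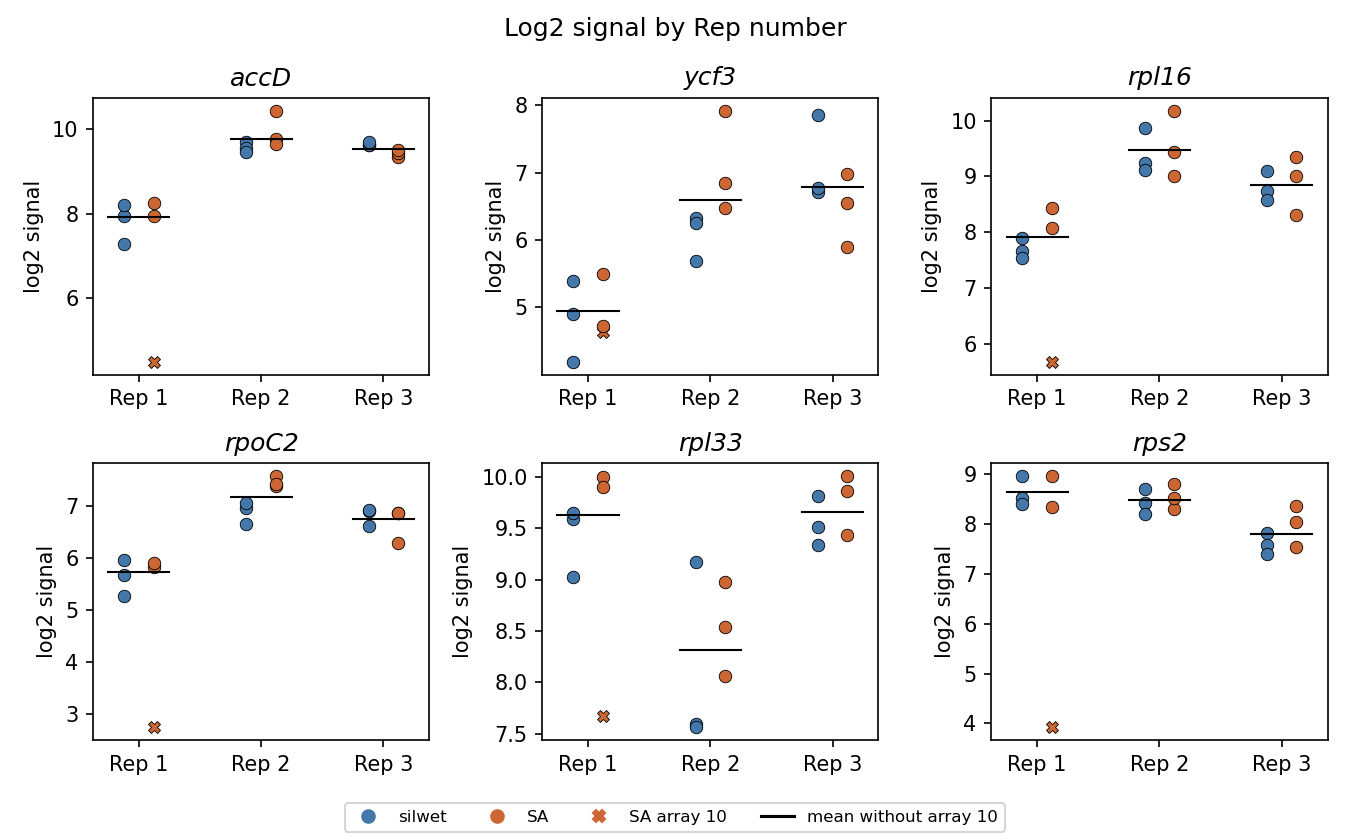
Log2 signal (vertical axes, each on its own scale) of accD, ycf3, rpl16, rpoC2, rpl33 and rps2 by Rep number. Each point is an array, blue for silwet and orange for SA, the cross is SA array 10, and the line is the mean without array 10. Rep 1 is lowest in accD, ycf3, rpl16 and rpoC2, Rep 2 in rpl33 and Rep 3 in rps2. The 6 genes were picked after their values were seen.

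Over the whole set, Rep 1 had the lowest mean in 20 of the 26 members, or in 18 without array 10, where Rep 2 was lowest in 6 and Rep 3 in 2 (rps2 and rpoA). Leaving array 10 out, Rep 3 exceeded Rep 1 within both treatments in 19 members, and Rep 2 exceeded Rep 1 in 15. These counts were not made over all probe sets. Deviations of the same Rep number also correlated between the treatments over all probe sets tested (0.60, 0.56 and 0.63 for Rep 1, 2 and 3). The median difference of Rep 2 from Rep 1 over the 24 tested members was 0.64 log2 units, and that of Rep 3 was 0.75. Without array 10 these medians were 0.21 and 0.35. Over all probe sets tested the medians were 0.00091 and -0.031, or -0.0051 and -0.039 without array 10. The 42 tested photosynthesis probe sets had medians of 0.42 and 0.67 (0.046 and 0.26 without array 10) with 4 called (7 without), and the 14 tested mitochondrial ones had 0.16 and 0.11 (-0.028 and -0.044) with 0 called by limma in either case. With the 6 triplets as the covariate, 12 of the 42 and 1 of the 14 were called. These medians of the photosynthesis genes had the sign of the members' medians, and the sets were not tested against each other.

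By class, the mean of the single genes was 9.71 ± 0.29 on the 5 Rep 1 arrays other than array 10, 10.28 ± 0.29 in Rep 2 and 10.32 ± 0.15 in Rep 3 (SD, n = 6 each for Rep 2 and 3). The ycf mean was 7.38 ± 0.41, 8.22 ± 0.43 and 8.47 ± 0.37 in the same order, and only these class means kept Rep 1 apart from Rep 2 and Rep 3 on every array. The rpo mean was 6.61 ± 0.29, 7.14 ± 0.26 and 7.03 ± 0.23, the rpl mean 8.38 ± 0.27, 8.68 ± 0.33 and 8.90 ± 0.18, and the rps mean 7.45 ± 0.23, 7.72 ± 0.30 and 7.61 ± 0.13, with overlapping arrays. Both separations leaned on members set out above, ycf3 and accD. Without array 10, Rep 2 and Rep 3 differed from Rep 1 by 1.62 and 1.83 in ycf3, but by 0.011 and 0.31 in ycf4. Among the single genes, accD differed by 1.82 and 1.60, and matK by 0.40 and 0.58. The rest were smaller, at 0.22 and 0.39 for ccsA, 0.19 and 0.32 for cemA and 0.19 and 0.10 for clpP. The hybridisation spikes averaged 7.79 to 8.13 in Rep 1, 7.59 to 8.71 in Rep 2 and 7.18 to 8.99 in Rep 3, and the actin 3' to 5' log2 ratio, without array 10, was 0.45 to 0.58, 0.62 to 1.51 and 0.15 to 0.79. The large-subunit rRNA control, without array 10, read 2.01 to 2.40 in Rep 1, 2.18 to 2.97 in Rep 2 and 2.54 to 3.90 in Rep 3. Its Rep 1 arrays thus lay below its Rep 3 arrays, and silwet array 7 read 2.01. The part of these controls in the Rep differences was not tested. What a Rep number shares (a batch of plants, a day or a labelling run) is not stated in the labels.

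**Figure D4:**
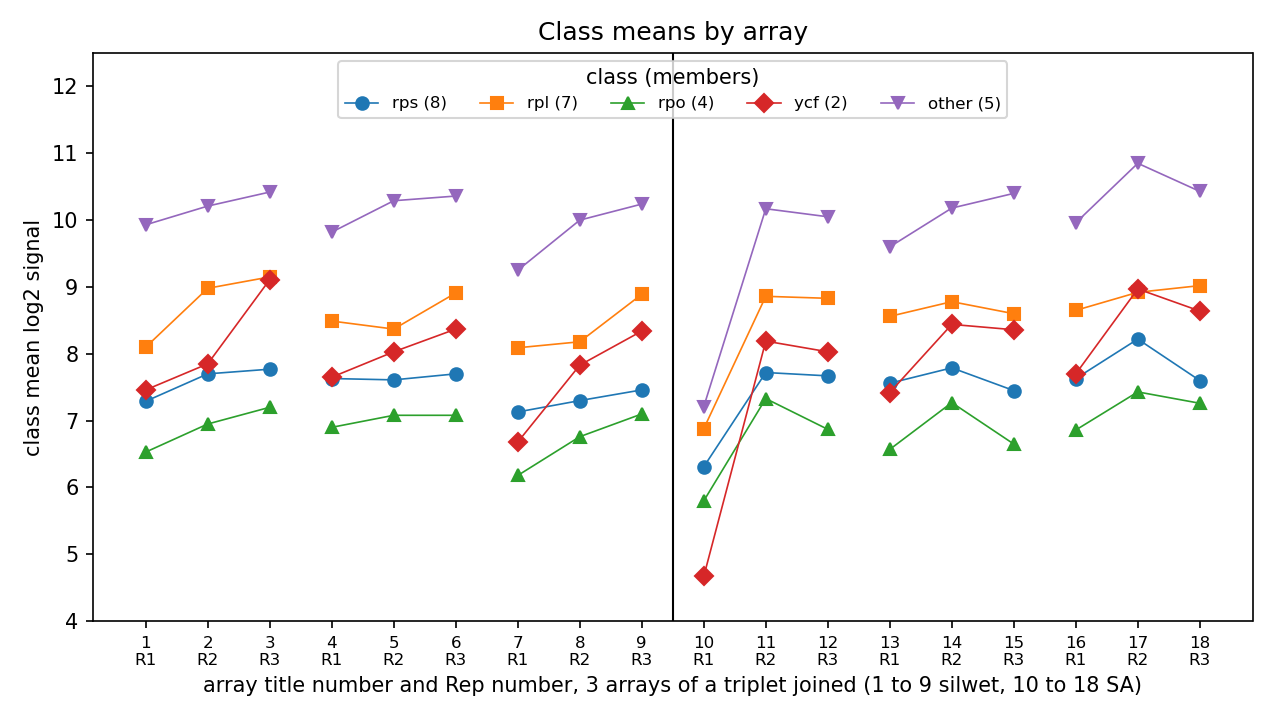
Mean log2 signal of each class of members (vertical axis) on each array (horizontal axis, title number and Rep number), with the 3 arrays of a triplet joined. The first array of every triplet, Rep 1, is the lowest of its triplet for the single genes and the ycf class, and SA array 10 falls to 4.67 for ycf and 7.21 for the single genes. The vertical line separates silwet from SA.

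With all arrays, the test for SA called no probe set, and so no member. The comparison asks which transcripts differ with SA beyond the surfactant. None of the 24 tested members was called (limma), none had an unadjusted p under 0.05, and 0% of all probe sets tested were called, with 238 of 13652 at an unadjusted p under 0.05. The count of 0 therefore does not set the members apart. Differences between triplets count as spread in this test, and 30.1% of all probe sets tested were called between SA triplets. The differences of SA from silwet ran from -0.36 to 0.28 log2 units, with a median of -0.10, and 8 of 24 were higher with SA. Without array 10 they ran from -0.14 to 0.42 with a median of 0.15, and 19 of 24 were higher, and the sign turned in 11 members when that 1 array was left out. The median over all probe sets was -0.028, and -0.024 without array 10. The photosynthesis genes moved likewise, from a median of -0.044 with 14 of 42 higher to 0.20 with 32 of 42 higher.

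The smallest unadjusted p for SA among the members was that of rps16, annotated as a small subunit gene. It read 4.98 to 6.70 with silwet (median 5.96) and 5.30 to 7.16 with SA (median 6.20), and the groups overlapped over most of their range. Its difference was 0.25 ± 0.22 log2 units (SE, limma, adjusted p = 1.00), and 0.36 ± 0.21 without array 10. rps18 had the smallest p without array 10, when SA exceeded silwet by 0.29 ± 0.14 (unadjusted p = 0.0514), against 0.04 ± 0.26 with all arrays. ycf4 read 9.18 to 10.37 with silwet (median 9.90) and, array 10 apart, 9.90 to 10.29 with SA (median 10.07). Its difference was -0.36 ± 0.56 with all arrays and 0.24 ± 0.13 without array 10. Among the other named members, cemA differed by -0.30 ± 0.38, rpl36 by -0.25 ± 0.32 and rpoC1 by -0.18 ± 0.23 (0.10 ± 0.11, -0.0096 ± 0.25 and -0.014 ± 0.18 without array 10). For accD, clpP and matK the values were -0.25 ± 0.61, -0.18 ± 0.32 and -0.11 ± 0.29, and 0.28 ± 0.39, 0.13 ± 0.15 and 0.16 ± 0.15 without array 10.

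The errors for SA were narrowest in rpl32 and rpoA, which differed by 0.005 ± 0.09 and -0.07 ± 0.11 log2 units (0.016 ± 0.10 and -0.08 ± 0.12 without array 10). The dim members read 3.98 ± 0.39 (rps14) and 3.59 ± 0.50 (rpoB) with SA (SD, n = 9). In a fit with no filter, SA exceeded silwet by 0.55 in rps14 and by 0.50 in rpoB (unadjusted p = 0.0351 and 0.0428, limma, adjusted p = 1.00 for both), above the range of the 24 tested members. Whether the SA effect differed between Rep numbers was tested after the data had been seen, and no member and no probe set was called (limma, 2 of 24 members at an unadjusted p under 0.05). On simulated data, the SA test called 87 of 100 probe sets changed by 2-fold and 97 of 100 changed by 4-fold, drawn from all probe sets tested. With all arrays, the members with the widest standard errors, such as accD at 0.61 and ycf4 at 0.56 log2 units, are measured less finely than that. Without array 10 these errors were 0.39 and 0.13. The simulated noise had the silwet spread on every array, with no array like array 10 and no differences between triplets or Rep numbers. With array 10 the spread with SA could be wider, as in ycf4 (SD 1.79 with SA and 0.36 with silwet). Without array 10 the ycf4 SD with SA was 0.13. Recovery on the real arrays was therefore not measured.

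**Figure D5:**
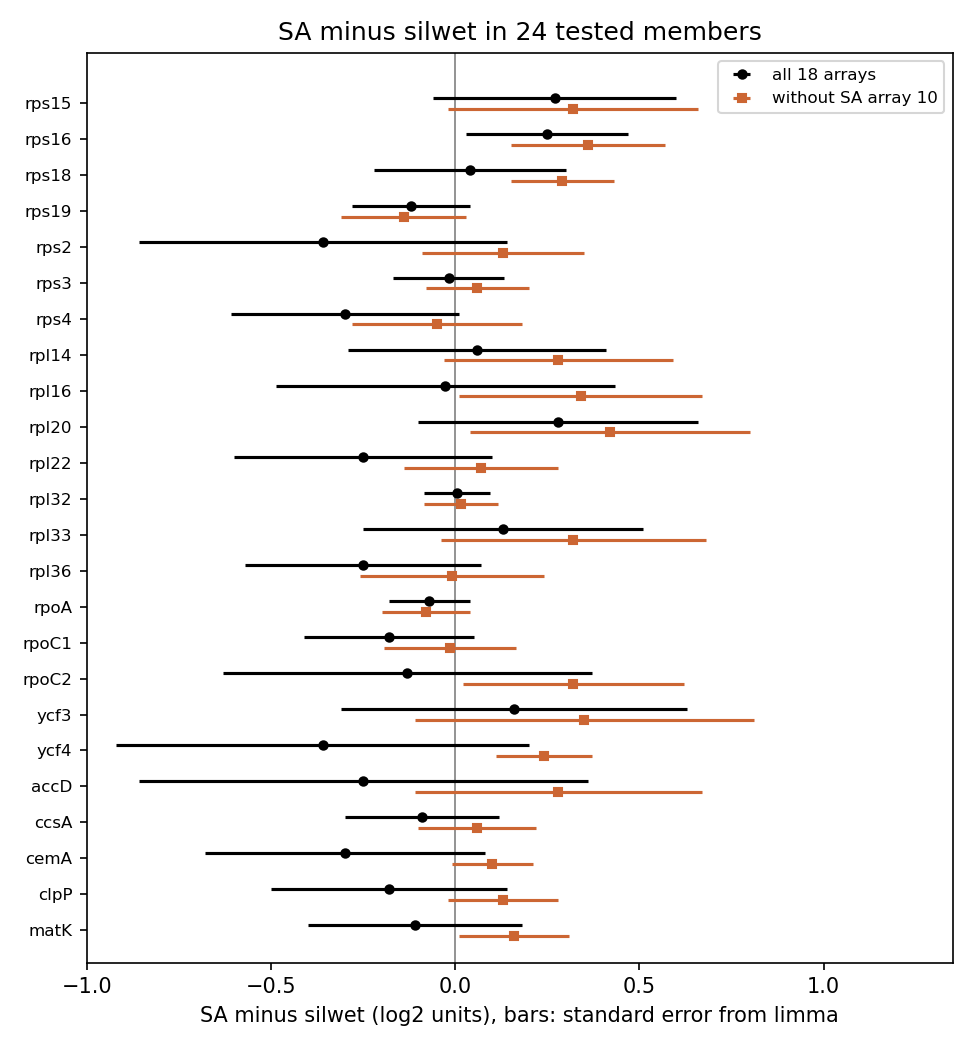
Difference of SA from silwet in log2 units (horizontal axis) for the 24 tested members (vertical axis), with limma standard errors as bars. Black circles use all 18 arrays and orange squares leave out SA array 10. The values lie between -0.36 and 0.28 with all arrays and between -0.14 and 0.42 without array 10, where 19 of 24 are above 0.

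Across the triplets of title numbers, ccsA was the only member called, a smaller share than among all probe sets, and 1 array could undo the call. Between the 3 SA triplets (10 to 12, 13 to 15 and 16 to 18), 1 of 24 members was called, against 30.1% of all probe sets tested (limma F test). Without array 10 no member was called, against 26.3% of all, with 1 member at an unadjusted p under 0.05. The count was also 0 without silwet array 1 or 5 or SA array 14, 17 or 18, and 2 or 3 on leaving out SA array 12 or SA array 11. With the Rep number as a block, 2 members were called, ccsA and rps4, against 37% of all. In that fit 7 members had an unadjusted p under 0.05, against 2 in the fit without the block (limma F test, all arrays). The simulated test for a change in 1 SA triplet called 54 of 100 probe sets changed by 2-fold and 91 of 100 changed by 4-fold. Its noise was drawn from the silwet spread, as for the SA test.

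The member called was ccsA (ArthCp073), the cytochrome c maturation gene. It read 9.38, 10.47 and 10.39 on SA arrays 10, 11 and 12, then 10.17, 10.62 and 11.06 on arrays 13 to 15, and 10.75, 11.43 and 11.02 on arrays 16 to 18. The last triplet exceeded the first by 0.98 ± 0.29 log2 units (SE, limma, adjusted p = 0.0408), and by 0.63 ± 0.26 without array 10 (adjusted p = 0.150). Arrays of the triplets overlapped, since array 15 read more than array 16. rps4 read 8.39, 10.67 and 10.43, then 9.64, 10.57 and 10.51, then 10.32, 11.78 and 10.85 on the same arrays, and its adjusted p was 0.243, or 0.0151 with the Rep number as a block. clpP, the protease subunit gene, read 7.34, 9.88 and 9.79, then 9.67, 10.03 and 10.18, then 10.36, 10.81 and 10.10 (adjusted p = 0.0783, or 0.0949 without array 10).

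Between the silwet triplets no member was called by limma, and 1.14% of all probe sets tested were. The smallest unadjusted p among the members was 0.156. Without array 10 none was called either, against 1.38%, with 1 member at an unadjusted p under 0.05. The mean of the 26 members was 8.33 ± 0.39, 8.32 ± 0.16 and 8.01 ± 0.39 on silwet arrays 1 to 3, 4 to 6 and 7 to 9, and 7.75 ± 1.14, 8.27 ± 0.21 and 8.55 ± 0.30 on SA arrays 10 to 12, 13 to 15 and 16 to 18 (SD, n = 3). Arrays 11 and 12 alone averaged 8.41.

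The nuclear genes that supply the rest of these complexes could be looked at only in part. Of 114 listed names for sigma factors and polymerase-associated proteins, plastid ribosomal proteins, Clp subunits, carboxylase subunits, RNA maturation factors and assembly factors, 6 were matched to a probe set naming 1 gene. All 6 were tested and none was called in any of the 4 tests, though with the Rep number as a block 1 of the 3 RNA maturation genes was called between SA triplets. CLPP4, a nuclear Clp subunit gene, read 9.62 ± 0.19 with silwet and 9.63 ± 0.18 with SA (SD, n = 9). On array 10 its difference from the silwet mean was -0.07 log2 units, where that of clpP was -2.63. AT1G77750, matched by the ribosomal protein name RPS13, was at 0.16, CcdA, which acts in thylakoid thiol transfer, at -0.15, and the intron splicing factor genes CAF1 and CFM3A at 0.08 and 0.24. Whether the product of AT1G77750 belongs to the plastid ribosome was not checked beyond that name. OTP70, which is required for splicing of the rpoC1 intron, was at -1.16. The leaf markers LHCB4.1, LHCB4.2 and RCA were at -0.16, -0.24 and -0.25 there, and of the 3, LHCB4.2 was called between SA triplets (limma, adjusted p = 0.0432), with 2 of the 3 called under the Rep block.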

How the data were processed

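Affymetrix ATH1 arrays of biotin-labelled total RNA were measured. The deposited values are 1 signal intensity per probe set, made with MAS5 per the submitters' processing notes, with no version stated, and on a linear scale as judged from the values. With 2% left out at each end, every array's mean was 100.0, so the values had been scaled. All 18 columns were used, and the 64 control probe sets were left out of the tests.

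Values under an array's 20th percentile were raised to it, log2 was taken, and probe sets under the 40th percentile of mean log2 were left out, which left 13652. limma 3.58.1 in R 4.3.3 (eBayes with trend and robust) gave 4 tests: SA minus silwet, Rep numbers with treatment as a covariate, silwet triplets and SA triplets. Summaries were made in Python 3.11.15. A fold change on this floored scale understates dim transcripts. The SA and silwet deviations of the same Rep number from their treatment means correlated at 0.60, 0.56 and 0.63, while unlike numbers gave -0.059 at most. Such deviations cancel out over the Rep numbers, so low values for unlike numbers follow from high ones for like numbers and add no separate support. On the basis of the like numbers, which comes from these same data and not from the labels, Rep numbers were taken to pair arrays. The 4 main tests did not use this pairing, which entered only the alternative fits with a Rep block or with triplets as the covariate. The fits were tested on simulated data, where the Rep test called 78 of 100 probe sets changed by 2-fold and 14 of 13452 unchanged ones. The simulated arrays had independent noise of the silwet spread and none of the other differences between the real arrays.

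The members and lists were chosen with earlier results of these data known. The text names, per class, the members with the smallest Rep and SA p, up to 2 lowest on array 10, every called member, and accD, clpP, matK, ycf4, rpoA, rpoB, rps4 and rpl33. Mitochondrial probe sets were defined by symbol (nad, cox, ccb, matR, orfX), and the control pairs were chosen, after the data were seen. Names came from the platform annotation and RefSeq (assembly TAIR10.1). No source used here names the array's build, so no coordinates or sequences are given.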

Additional observations from a re-analysis of the deposited data

Results flagged for a closer look

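Within each treatment, 52 groups of 9 arrays (26 members by 2 treatments) were examined for an array far from the rest by Dixon's test, of which chance flags about 1 in 20. There were 14 such arrays, 11 of them SA array 10. On that array rps18 read 6.15 (nearest other SA array 8.08), rps2 read 3.92 (7.54), rpl16 read 5.67 (8.08) and rpl22 read 6.23 (8.41). The polymerase genes rpoC1 and rpoC2 read 6.54 (7.50) and 2.75 (5.82). ycf4 read 4.71 (9.90), accD read 4.50 (7.94), cemA read 7.02 (10.35), clpP read 7.34 (9.67) and matK read 7.80 (9.87). On silwet array 7, cemA read 9.96 and clpP 9.28, below their nearest silwet arrays at 10.39 and 9.85. rps14, a dim probe set, read 4.97 on SA array 17, above the nearest at 4.04.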

How the results depend on the processing

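The count of 0 members called for SA held under each alternative (eBayes without trend, the replicate block, leaving out each array, quantile normalization, median centring, no floor, a filter at the 60th percentile or none, and a pseudocount of 16 before log2), as did the count of 0 between silwet triplets. For Rep numbers the 4 calls became 9 with the pairing covariate, which moved the background as well, and 3 to 5 under the other settings. Leaving out 1 array gave 0 to 6, lowest without silwet array 7 and highest without SA array 10. Between SA triplets the 1 call became 2 with the replicate block and 0 with no filter, quantile normalization or median centring, and leaving out 1 array gave 0 to 3. Beyond the members, the replicate block raised the calls between SA triplets from 4 to 13 among the 42 photosynthesis probe sets and from 1 to 2 among the 14 mitochondrial ones. The cause of these changes was not tested.

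Signs of small differences turned. SA minus silwet of rps3 became 0.0028 with median centring and that of rpl32 -0.014 with quantile normalization, and Rep 3 minus Rep 1 of rps2 became 0.0046 with median centring. With 1 array left out, SA minus silwet ranged as follows in the members whose sign turned: rps18 -0.028 to 0.29, rps2 -0.5 to 0.13, rps3 -0.1 to 0.06, rpl14 -0.12 to 0.28, rpl16 -0.22 to 0.34, rpl22 -0.36 to 0.07, rpl32 -0.036 to 0.046, rpl33 -0.049 to 0.32, rpoC2 -0.28 to 0.32, ycf3 -0.07 to 0.39, ycf4 -0.46 to 0.24, accD -0.47 to 0.28, ccsA -0.2 to 0.06, cemA -0.39 to 0.1, clpP -0.3 to 0.13, matK -0.2 to 0.16. Rep 3 minus Rep 1 ranged likewise: rps16 -0.024 to 0.26, rps2 -0.86 to 0.22, rpl22 -0.025 to 0.7, rpl33 -0.01 to 0.49. Signal near background limits rps14 and rpoB.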
